A study of Mus musculus with 36 samples.

Results

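Sprr1a, Psca, S100a14, Mal, Muc1 and Lrp2, 6 genes of epithelial surfaces, were followed through the lungs of mice given crude oil, the dispersants Corexit 9500 and Corexit 9527, or mixtures of both. The genes were taken by symbol. All 6 are listed in the count tables of both sexes, among 17716 genes that the tables share. They were chosen by values measured in these same mice. Which comparison was used for the choice is not stated. Corexit 9527 against saline was treated as the one used, and since the Corexit 9500 mice may have entered the choice as well, every comparison that holds a group given a dispersant alone is a description below and supports nothing by itself.

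Wild-type C57BL/6 mice, bought at 7 weeks of age and kept for 1 week before the first dose, made up 12 groups of 3. In each sex a group received saline, either dispersant alone (Corexit 9500 or Corexit 9527), oil alone, or a mixture of the oil with one of them (9500+oil or 9527+oil), all at a concentration of 0.1 WAF, the accommodated fraction of the material in a salt solution. By the paper's methods only the saline phase was taken for oil alone. The dispersants and mixtures hardly separated and were used whole, so oil alone and the mixtures did not hold the same fraction of the oil. The preparation was aspirated into the airway on days 0, 7 and 13, and the mice were killed on day 14, 1 day after the last dose. The left lung was sequenced whole, so fewer cells of a type and less RNA per cell cannot be told apart in any value below. Female and male mice are held in separate tables, and sex cannot be told apart from whatever else differed between them. Each dispersant is a commercial blend, so the groups compare preparations rather than single chemicals.

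The lining of the airways and alveoli meets inhaled material first. When it is injured, surviving epithelial cells spread, divide and change their programme, and such cells switch on keratins, secreted defence proteins and, in some settings, genes that are better known from skin. Sprr1a encodes a small proline-rich protein that transglutaminases cross-link into the cornified envelope of the skin. Psca encodes a surface protein of the Ly6 and uPAR family, held in the membrane by a lipid anchor. S100a14 belongs to the calcium-binding S100 family. Mal is a membrane proteolipid that takes part in the transport of cargo to the apical surface. Muc1 is a membrane-bound mucin of the apical surface, and Lrp2, or megalin, is a large endocytic receptor of the LDL receptor family.

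The 6 genes lie on 3 chromosomes of GRCm38. Sprr1a (ENSMUSG00000050359) spans chromosome 3 from 92483952 to 92485895 on the minus strand. S100a14 (ENSMUSG00000042306) lies on the same chromosome from 90526856 to 90528837, and Muc1 (ENSMUSG00000042784) from 89229057 to 89233381, both on the plus strand. Mal (ENSMUSG00000027375, 127633226 to 127656695) and Lrp2 (ENSMUSG00000027070, 69424340 to 69586065) are both on the minus strand of chromosome 2. Psca (ENSMUSG00000022598) lies on the plus strand of chromosome 15 from 74714839 to 74717069. No member overlaps another annotated gene. Although Sprr1a belongs to a family of similar genes, none of the 759 stretches of 31 bases in its transcripts occurs in a transcript of another gene, and the same held for Psca, S100a14, Mal and Muc1. In Lrp2, 6 of 16670 such stretches (0.036%) were shared.

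RefSeq promoters (GRCm38.p6), each a window of 300 bases that lies mostly before the start of the gene, were at hand for 4 of the 6 members. Those of Psca and S100a14 were not used here. The stretches from 150 to 21 bases before the start of Sprr1a (chr3:92485902-92486031, minus strand), Muc1 (chr3:89228906-89229035, plus strand) and Mal (chr2:127656716-127656845, minus strand) are shown because they run from the member with the widest differences between groups to those with smaller ones, and differ in their elements. Capitals mark the AP-1 motif TGANTCA, the TATA box TATAAA and the GC box GGGCGG, each searched on both strands.
Sprr1a: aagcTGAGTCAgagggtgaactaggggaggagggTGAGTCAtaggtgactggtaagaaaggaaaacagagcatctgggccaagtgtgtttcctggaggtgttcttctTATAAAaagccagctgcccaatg
Muc1: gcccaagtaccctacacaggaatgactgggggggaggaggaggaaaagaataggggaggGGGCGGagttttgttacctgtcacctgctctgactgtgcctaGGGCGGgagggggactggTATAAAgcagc
Mal: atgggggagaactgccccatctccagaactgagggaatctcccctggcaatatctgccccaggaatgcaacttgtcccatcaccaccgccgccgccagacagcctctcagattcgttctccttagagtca

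The promoter of Sprr1a held 2 AP-1 motifs and 1 TATA box. Of all 32851 promoters in the table, 7.81% held an AP-1 motif and 0.46% held 2 or more, while 13.6% held a TATA box. The promoters of Mal, Muc1 and Lrp2 held no AP-1 motif. Muc1 had 2 GC boxes and 1 TATA box, and Lrp2 had 2 GC boxes, which occur at least once in 35.7% of promoters. The core of the antioxidant response element, TGACNNNGC, occurred once in Sprr1a, where it overlaps an AP-1 motif, and once in Muc1, against 12.4% of promoters. The core of the xenobiotic response element, GCGTG, found in 32.4% of promoters, was in none of the 4. Mal held none of the 5 motifs in this window. These matches describe letters, and nothing in the data tests whether a factor binds there.

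Total counts ran from 17501180 to 30011557 per mouse. Mitochondrial genes took 20.67 to 45.09% of the counts in 4 female libraries (saline mouse 3, oil mouse 6, Corexit 9527 mouse 11 and 9500+oil mouse 14), against 6.161 to 11.34% in the other 14 female and 5.27 to 7.676% in the 18 male libraries. These 4 libraries stand apart for S100a14 and in part for Psca, and member results that turn on them are given with and without them. Related gene lists and sums of cell type markers are given with all libraries only, so their female ranges hold these 4 as well. Levels are normalised counts (CPM), scaled to the effective library size of each mouse.

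Per kilobase of exon, Muc1 was the most abundant member in saline mice, with means of 234 CPM per kilobase in female and 206 in male mice. Mal followed with 12.5 and 10.9, then Lrp2 with 3.87 and 6.29, Sprr1a with 2.28 and 1.72, S100a14 with 1.01 and 1.27 and Psca with 0.123 and 0.229. In Corexit 9500 mice the mean of Sprr1a was 46.9 CPM per kilobase in female and 14.5 in male mice, and with Corexit 9527 it was 19.2 and 39.6. Mal had means of 15.1 to 22.1 CPM per kilobase in the same 4 groups.

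Sprr1a gave the clearest split between mice. In female mice the level was 1.87, 1.33 and 2.33 CPM with saline, 73.4, 6.97 and 33.0 CPM with Corexit 9500 and 22.3, 9.93 and 14.3 CPM with Corexit 9527. In male mice it was 1.39, 1.47 and 1.31 CPM with saline, 20.3, 11.6 and 3.33 CPM with Corexit 9500 and 32.8, 45.8 and 17.2 CPM with Corexit 9527. The means were 1.84 ± 0.499 (SD, n = 3), 37.8 ± 33.5 and 15.5 ± 6.27 CPM in these female groups and 1.39 ± 0.0815, 11.7 ± 8.46 and 31.9 ± 14.3 CPM in the male ones. Every mouse given a dispersant alone lay above every other mouse of its sex, 6 against 12 in each. The 12 other female mice, oil and both mixtures included, ran from 0.951 to 2.98 CPM and the 12 other male mice from 0.469 to 2.89 CPM. Among the dispersant mice the spread was wide, 6.97 to 73.4 CPM in female and 3.33 to 45.8 CPM in male mice, and the Corexit 9500 and Corexit 9527 groups overlapped in both sexes. The saline, oil, 9500+oil and 9527+oil groups overlapped as well, except that the 3 male 9500+oil mice (1.53 to 2.89 CPM) lay just above the 3 male saline mice.

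Psca followed the same order at a far lower level. Male mice had 0.199, 0.21 and 0.181 CPM with saline, 1.57, 0.79 and 0.715 CPM with Corexit 9500 and 3.05, 3.5 and 1.6 CPM with Corexit 9527, and all 6 dispersant mice lay above the other 12, whose highest value was 0.275 CPM. Female mice had 0.162, 0.155 and 0 CPM with saline, 1.87, 0.697 and 2.55 CPM with Corexit 9500 and 1.22, 0 and 1.51 CPM with Corexit 9527. The 0 with Corexit 9527 belongs to mouse 11, one of the libraries rich in mitochondrial counts, where a count of 0 allows up to 0.317 CPM. Without the 4 such libraries, 5 dispersant mice (0.697 to 2.55 CPM) lay above the other 9 (0 to 0.19 CPM). Because Psca had only 0 to 6 counts in each mouse that was not given a dispersant alone, it passed the filter on low counts only in comparisons that held enough dispersant mice.

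S100a14 had 2.84, 2 and 1.76 CPM in male mice with saline, 9.79, 6.47 and 4.58 CPM with Corexit 9500 and 10.1, 11.3 and 7.09 CPM with Corexit 9527. Both dispersant groups lay above saline, and 5 of the 6 dispersant mice lay above all 12 others, of which an oil mouse reached 5.04 CPM. In female mice the values were 2.48, 2.76 and 0 CPM with saline, 18.2, 4.39 and 9.14 CPM with Corexit 9500 and 9.37, 1.27 and 5.18 CPM with Corexit 9527. The 4 lowest female levels, 0 to 1.27 CPM, were those of the 4 libraries with high mitochondrial shares. Without them, the 5 dispersant mice (4.39 to 18.2 CPM) lay above the other 9 (1.71 to 3.47 CPM).

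Mal differed less in proportion than Sprr1a, Psca and S100a14. Male mice had 32.6, 28 and 30.2 CPM with saline, 45.3, 50.1 and 30.4 CPM with Corexit 9500 and 60.8, 63.8 and 59.4 CPM with Corexit 9527. Female mice had 35.1, 29 and 40.3 CPM with saline, 76.2, 42.1 and 58.5 CPM with Corexit 9500 and 50.4, 54 and 50.9 CPM with Corexit 9527. Only the male Corexit 9500 group overlapped saline among these 4 pairs of groups. The male Corexit 9527 group lay clear of the male Corexit 9500 group, whereas in female mice the pair overlapped.

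**Figure D1:**
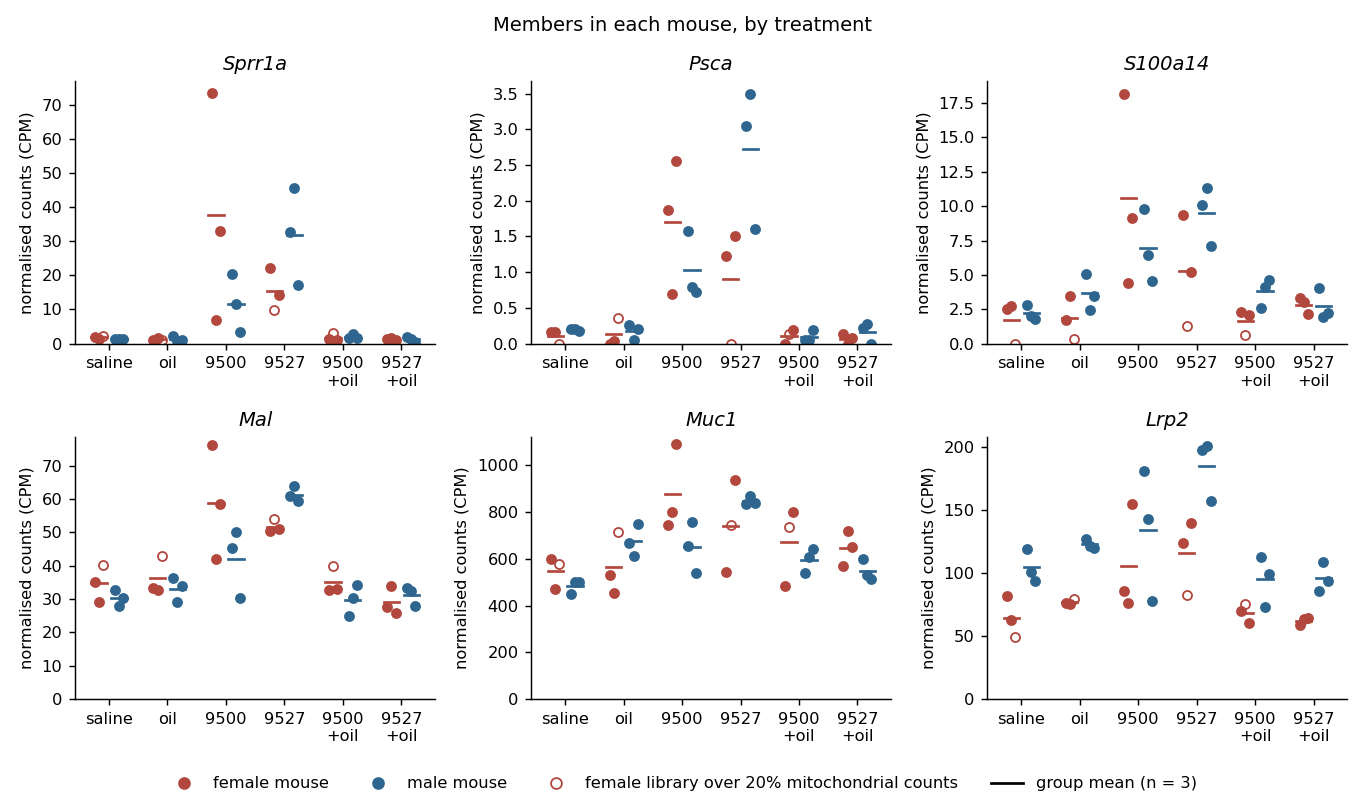
Level of each member in every mouse, in normalised counts (CPM, linear axes from 0), by treatment, with female mice in red and male mice in blue. Bars are means of 3 mice and open circles are the 4 female libraries with over 20% mitochondrial counts. In both sexes Sprr1a stays at or below 2.98 CPM except in the mice given a dispersant alone, and Mal, Muc1 and Lrp2 show smaller and partly overlapping differences.

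Muc1 had 450, 500 and 500 CPM in male saline mice and 834, 866 and 840 CPM in male Corexit 9527 mice, with Corexit 9500 between them at 655, 755 and 538 CPM. Here oil itself lay above saline in male mice, with 668, 610 and 748 CPM, and so did 9500+oil (539 to 643 CPM) and 9527+oil (514 to 599 CPM). In female mice the saline values of 598, 470 and 578 CPM lay below the Corexit 9500 values of 743, 801 and 1090 CPM and overlapped the Corexit 9527 values of 544, 743 and 935 CPM. Muc1 had the fewest dispersant mice above all 12 others of their sex, 4 of 6 in male and 2 of 6 in female mice.

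Lrp2 had 119, 101 and 93.9 CPM in male saline mice, 181, 143 and 78.1 CPM with Corexit 9500 and 198, 201 and 157 CPM with Corexit 9527. In female mice it had 82, 62.6 and 49.6 CPM with saline, 86, 76.7 and 155 CPM with Corexit 9500 and 124, 83.1 and 140 CPM with Corexit 9527. The Corexit 9527 groups lay above saline in both sexes, and the Corexit 9500 groups overlapped it in both.

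Differences between groups were fitted with the quasi-likelihood test of edgeR across all genes, with the sexes pooled and sex as a covariate (6 mice against 6) or within a sex (3 against 3). A gene was called at a Benjamini-Hochberg adjusted p under 0.05. Among sources of variation, the tests within a sex hold only the spread between the 3 animals of a group. In fits over both sexes the error also takes up any difference between the sexes in response to a treatment. Every comparison with saline of a sex uses the same 3 saline mice, and the direct comparisons use the same dispersant mice again, so the comparisons are not independent of one another.

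Corexit 9527 against saline, the comparison treated as the one behind the choice of the genes, gave higher values of all members tested. Over both sexes the log2 fold change was 3.80 ± 0.40 (SE) for Sprr1a, 1.83 ± 0.66 for S100a14, 0.79 ± 0.15 for Mal, 0.62 ± 0.17 for Muc1 and 0.83 ± 0.17 for Lrp2. Psca missed the filter on low counts there and had 3.34 ± 0.76 without it. Of the 5 members tested 1, Sprr1a, was called, beside 0.0339% of 14770 genes. In male mice alone the values were 4.52 ± 0.37 for Sprr1a, 3.76 ± 0.48 for Psca, 2.11 ± 0.28 for S100a14, 1.02 ± 0.10 for Mal, 0.81 ± 0.09 for Muc1 and 0.83 ± 0.13 for Lrp2. There 5 of 6 were called, all but Lrp2, beside 0.114% of 14919 genes. In female mice the values ran from 0.42 for Muc1 to 3.06 ± 0.58 for Sprr1a, and 0 of 5 were called, as were 0% of 15004 genes. Without the 4 libraries rich in mitochondrial counts, the log2 fold change over both sexes was 4.10 ± 0.31 for Sprr1a, 3.49 ± 0.34 for Psca and 1.85 ± 0.24 for S100a14, and 6 of 6 members were called beside 2.34% of 14898 genes. Nothing is read from these counts, since the genes may have been picked for them.

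These counts hung on single mice. Over both sexes 0 members were called without female saline mouse 1 or 2, or without male saline mouse 1, 2 or 3, and 2 were called without female saline mouse 3 or female Corexit 9527 mouse 11. The share of all genes called moved too, from 0% in the refits with 0 members to 0.0604% and 0.0201% in these 2. In male mice 0 were called without saline mouse 1, 2 or 3, 1 without Corexit 9527 mouse 10 2 without Corexit 9527 mouse 11 and 6 without Corexit 9527 mouse 12, beside 0 to 0.0198%, 0.0462%, 0.0595% and 1.39% of all genes. The log2 fold change of Sprr1a moved only between 3.57 and 4.19 over all alternatives for both sexes.

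Corexit 9500 against saline uses the same saline mice, and as its own mice may have entered the choice, its values are a description too. Psca passed the filter there only through the dispersant mice. All 6 members had positive log2 fold changes over both sexes, 3.72 ± 0.61 for Sprr1a, 3.01 ± 0.56 for Psca, 2.10 ± 0.63 for S100a14, 0.61 ± 0.19 for Mal, 0.54 ± 0.15 for Muc1 and 0.53 ± 0.24 for Lrp2. None passed the adjusted threshold (lowest adjusted p = 0.885 from edgeR, for Sprr1a), and neither did any of 14861 genes (0%). At an unadjusted p under 0.05 there were 5 members, all but Lrp2, beside 2.27% of all genes. DESeq2's Wald test called 2 of the 6, Sprr1a and Psca, beside 0.035% of genes. Within female mice the log2 fold changes ran from 0.68 to 4.37 and 0 of 6 members were called (0% of 14839 genes). Over the alternatives Sprr1a lay between 3.43 and 4.86 there and S100a14, at 2.57 with all libraries, between 1.43 with voom and 3.05 without saline mouse 2. Within male mice they ran from 0.35 to 3.07 and 0 of 6 were called beside 0.00662% of 15116 genes, with 5 at an unadjusted p under 0.05 beside 6.35% of genes. Without male Corexit 9500 mouse 9, which had the lowest level of each of the 6 members in its group, 1 member was called in male mice, beside 0.0394% of genes.

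Set directly against each other over both sexes, Corexit 9527 and Corexit 9500 gave no difference that passed the test (0 of 6 members called, 0% of 14884 genes). The log2 difference of Sprr1a was 0.08 with a 95% interval from -1.48 to 1.63, and the intervals of Psca (0.29, from -1.23 to 1.81) and S100a14 (-0.27, from -1.34 to 0.79) were also wide. Those of Mal (0.18, from -0.26 to 0.62), Muc1 (0.07, from -0.35 to 0.49) and Lrp2 (0.30, from -0.23 to 0.82) were bounded more tightly. The pooled value joined opposite signs in the sexes. In male mice Corexit 9527 lay above Corexit 9500 for all 6 members, by 1.45 ± 0.56 on the log2 scale for Sprr1a and 1.41 ± 0.45 for Psca, while in female mice 5 of 6 lay below, by -1.29 ± 0.78 for Sprr1a. In neither sex was a member or any gene called (0% of 15071 genes in male and 0% of 14873 in female mice).

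**Figure D2:**
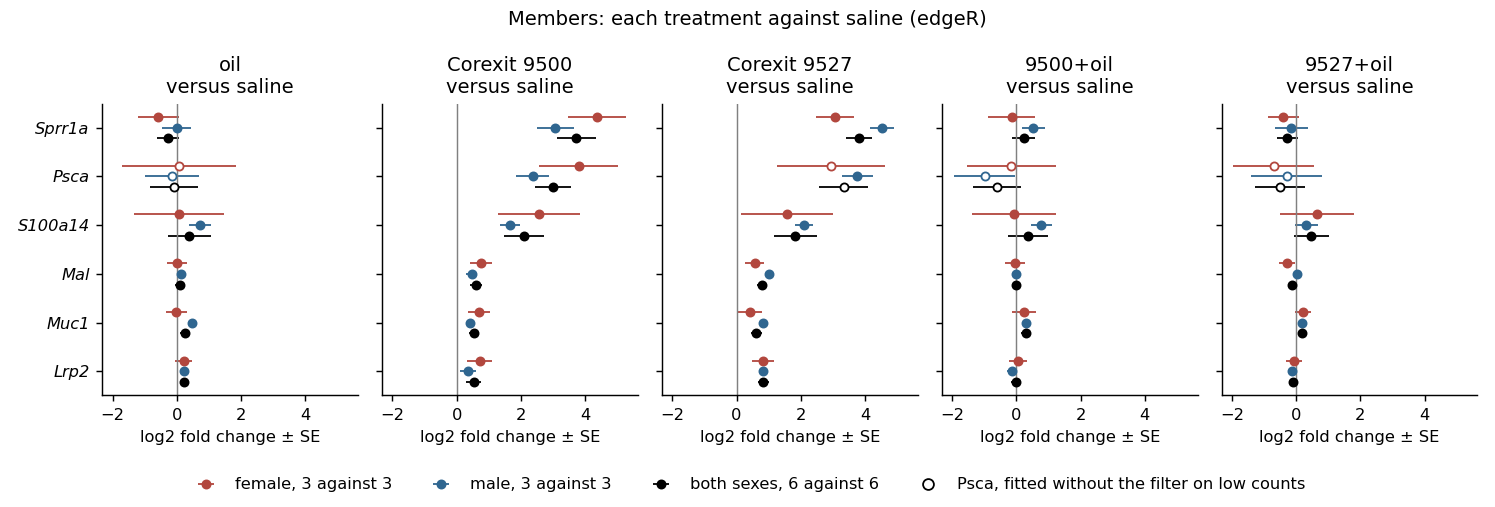
Log2 fold change of each member against saline with its standard error, for the 5 treatments, in female mice (red), male mice (blue) and both sexes (black). Open circles are Psca in fits without the filter on low counts, which it did not pass. In the 2 panels of the dispersants alone every value is above 0, and in the panels of oil and of both mixtures the values lie around 0.

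With oil alone no member was called by edgeR. Over both sexes the log2 fold changes against saline ran from -0.27 for Sprr1a to 0.38 for S100a14, with 0 of 5 members called and 0% of 14828 genes. In female mice they ran from -0.58 to 0.21 (0 of 5 called, 0% of 14837 genes). In male mice they ran from -0.01 for Sprr1a to 0.73 ± 0.34 for S100a14, with Muc1 at 0.48 ± 0.10 (adjusted p = 0.273 from edgeR), and 0 of 5 members were called beside 0.00671% of 14914 genes. Muc1 and Lrp2 lay above every saline mouse in all 3 male oil mice. DESeq2 called 1 member there, Muc1, beside 1.39% of genes.

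With the mixtures, too, no member was called by edgeR. For 9500+oil the log2 fold changes ran from -0.02 to 0.35 over both sexes, from -0.15 to 0.24 in female and from -0.14 to 0.78 in male mice, with 0 of 5 members called in each (0% of 14760, 14792 and 14889 genes). In male 9500+oil mice S100a14 (0.78 ± 0.32) and Muc1 (0.30 ± 0.10) had an unadjusted p under 0.05, 2 of 5 members beside 9.22% of genes. For 9527+oil they ran from -0.27 to 0.47 over both sexes, from -0.40 to 0.66 in female and from -0.15 to 0.32 in male mice. The highest values, 0.47 over both sexes and 0.66 in female mice, were those of S100a14, which had 0 counts in female saline mouse 3. Without the 4 libraries with high mitochondrial shares S100a14 had 0.23 and 0.12. Again 0 of 5 members were called in each, beside 0%, 0% and 0.00669% of 14857, 14869 and 14954 genes. Sprr1a, the member with the widest response to the dispersants, had 1.37, 1.76 and 1.08 CPM in female and 2.04, 1.27 and 0.469 CPM in male 9527+oil mice.

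Whether a mixture differed from its dispersant alone needs its own test. With 9527+oil against Corexit 9527, over both sexes, Sprr1a was lower by a log2 value of -4.06 ± 0.43 (adjusted p = 0.011 from edgeR), Mal by -0.90 ± 0.11 (adjusted p = 0.0133) and Lrp2 by -0.92 ± 0.14 (adjusted p = 0.0272). S100a14 (-1.35 ± 0.40) and Muc1 (-0.41 ± 0.15) did not pass. This made 3 of 5 members, beside 0.559% of 14851 genes. The Corexit 9527 mice are treated as those on which the genes were chosen, so a lower value in the mixture is in part built in, and the count is a description. Within male mice all 6 members were lower (Sprr1a by -4.68 ± 0.53, Psca by -4.09 ± 0.79) and the members' adjusted p values did not fall below 0.0671 (0 of 6 called, 0.0134% of 14882 genes). Within female mice Sprr1a was lower by -3.46 ± 0.43, and 0 of 5 members were called (0% of 14989 genes). Without the 4 libraries with high mitochondrial shares, 5 of 6 members were called beside 6.94% of 15015 genes. Of these 4 only female Corexit 9527 mouse 11 is in this comparison, so this is the same refit as the one without that mouse.

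Here too the number called moved with single mice. It was 5 without female Corexit 9527 mouse 11, 1 without female 9527+oil mouse 18, male Corexit 9527 mouse 10 or male 9527+oil mouse 17, and 0 without female or male 9527+oil mouse 16. All genes moved likewise, with 6.94% called in the refit with 5 members, 0.0134 to 0.02% in those with 1 and 0% in those with 0. The log2 difference of Sprr1a stayed between -4.42 and -3.81 over all alternatives.

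The same contrast can be read for the other dispersant, whose mice may have entered the choice too. With 9500+oil against Corexit 9500, all 6 members were lower over both sexes, from -3.68 ± 0.61 for Psca and -3.51 ± 0.66 for Sprr1a to -0.26 ± 0.16 for Muc1. None was called, nor was any of 14838 genes (0%), and 5 members had an unadjusted p under 0.05 beside 1.95% of genes. DESeq2 called 2 members, Sprr1a and Psca, beside 0.0338% of genes. All 6 were lower in each sex as well, by -4.48 ± 0.89 in female and -2.55 ± 0.59 in male mice for Sprr1a (0 called in either, 0% of 14788 and of 15087 genes). In every mixture mouse of both sexes Sprr1a lay below every mouse given the matching dispersant alone.

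**Figure D3:**
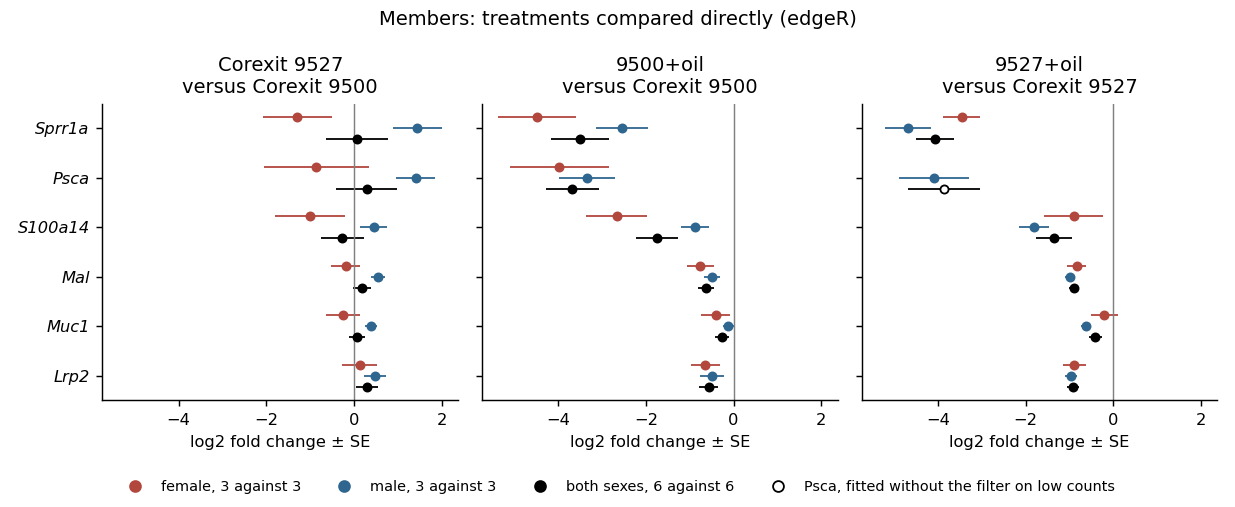
Log2 fold change of each member with its standard error in 3 direct comparisons of treatments, in female mice (red), male mice (blue) and both sexes (black, Psca without the filter on low counts as an open circle; in female mice Psca is not drawn for 9527+oil). In the left panel the sexes lie on opposite sides of 0 for most members. In the other panels, where oil was added to a dispersant, every value lies below 0.

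No member's response to a treatment passed the test for a difference between the sexes. With all libraries the interaction of sex and treatment was largest against its error for Sprr1a with Corexit 9527, where the log2 fold change was 1.44 ± 0.60 higher in male mice (adjusted p = 1 from edgeR). Without the 4 libraries with high mitochondrial shares that value was 0.99 ± 0.55, and the largest against its error was Muc1 with oil, 0.61 ± 0.20 higher in male mice (adjusted p = 0.758 from edgeR). With Corexit 9500 the sign was the other way, -1.30 ± 1.09 for Sprr1a and -1.38 ± 1.07 for Psca.

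Across mice the members followed each other to different degrees. With log2 CPM centred within each sex, Sprr1a had a Pearson r of 0.92 with Mal and 0.85 with Psca over the 36 mice, 0.74 with Lrp2, 0.64 with S100a14 and 0.63 with Muc1. These mice share their treatments, so r describes a common pattern rather than a link. S100a14 changed most when the 4 libraries with high mitochondrial shares were left out. Over the other 32 mice its r with Sprr1a was 0.94 in place of 0.64, and with Mal 0.88 in place of 0.46. For Lrp2 and Muc1 the same r with Sprr1a was 0.77 and 0.64.

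Among 15535 other genes, the closest in pattern to Sprr1a were Mal (0.92), Tnc (0.86), which encodes the matrix protein tenascin C, and Psca (0.85). Psca was closest to Sprr1a, Hn1l and Clcn5 (0.85, 0.85 and 0.83). Mal was closest to Sprr1a (0.92), 2810417H13Rik (0.85) and Cep55 (0.84), the last of which acts at the end of cell division. Lrp2 was closest to Uhrf1 (0.84), Pask (0.83) and Kntc1 (0.82), and Muc1 to 4930506M07Rik (0.78), Ckap2l (0.76) and Gorasp2 (0.75). S100a14 was closest to the keratin gene Krt18 (0.93), Tuba4a (0.92) and Ccnf (0.91). Most of these neighbours ranked lower over the 32 mice without high mitochondrial shares. Krt18, Tuba4a and Ccnf then ranked 9, 46 and 29 for S100a14, Tnc ranked 8 for Sprr1a, Hn1l 9 and Clcn5 4 for Psca, and 2810417H13Rik 9 and Cep55 25 for Mal. Uhrf1, Pask and Kntc1 ranked 8, 28 and 30 for Lrp2, and 4930506M07Rik, Ckap2l and Gorasp2 ranked 3, 2 and 19 for Muc1. Mal and Psca kept ranks 1 and 3 for Sprr1a, and Sprr1a kept rank 1 for both.

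Related genes were read as lists. None of the counts below is a test of a list, and Corexit 9527 against saline is still treated as the comparison on which the members were chosen. Of 30 genes of epithelial injury and of the transitional state between alveolar cell types, 29 were tested with Corexit 9527 over both sexes, 26 of them above 0 and 3 below. The median log2 fold change was 0.43 against 0.01 over all genes, 7 had an unadjusted p under 0.05 beside 2.85% of all genes, and 0 were called. The leading genes were Clu, which encodes the chaperone clusterin (0.61 ± 0.15), the alarmin gene Il33 (1.04 ± 0.29) and Tnip3 (2.18 ± 0.62). Tnip3 was low with saline, with means of 0.436 CPM in female and 0.47 CPM in male mice. With Corexit 9500, 25 of 29 lay above 0 (median 0.44, 0 called). With oil, 9500+oil and 9527+oil the medians were 0.04, 0.03 and 0.07, against 0.01, 0.04 and 0.03 over all genes. Fewer genes were tested there (26, 26 and 27), as some, Tnip3 among them, passed the filter on low counts only with the dispersant mice. For such genes a value above 0 is in part built in, and the medians are not over the same genes. In male mice with Corexit 9527 the median was 0.51 and 1 of the 29 was called, beside 0.114% of all genes, and 18 had an unadjusted p under 0.05, beside 13.7%. The gene called was Lcn2, which encodes the iron-siderophore binding protein lipocalin 2. Its levels were 265 to 431 CPM there and 126 to 150 CPM with saline (log2 fold change 1.31 ± 0.17, adjusted p = 0.0468 from edgeR). Lcn2 also reached 320 to 542 CPM in male oil mice, without passing (adjusted p = 0.0823 from edgeR).

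When 9527+oil was set against Corexit 9527, 23 of the 29 injury genes lay lower, with a median of -0.55 against 0.01 over all genes, and 2 were called, beside 0.559% of all genes. These were Il33 (-1.33 ± 0.22, adjusted p = 0.0273 from edgeR) and Ereg, which encodes the growth factor epiregulin (-3.96 ± 0.62, adjusted p = 0.0272). Il33 had 149 to 315 CPM in male Corexit 9527 mice and 79.7 to 93.1 CPM in male 9527+oil mice, and in female mice the ranges were 178 to 306 and 73.7 to 109 CPM. Ereg was far lower, at 0.983 to 9.13 and 0.173 to 0.33 CPM in male and 1.79 to 7.92 and 0.0856 to 0.464 CPM in female mice. Female saline mice had 0.0406 to 6.87 CPM of Ereg. Ereg missed the filter on low counts for 9527+oil against saline over both sexes and passed here through the Corexit 9527 mice, so its lower value is in part built in. For 9500+oil against Corexit 9500, 5 of 29 lay above 0 and the median was -0.39.

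**Figure D4:**
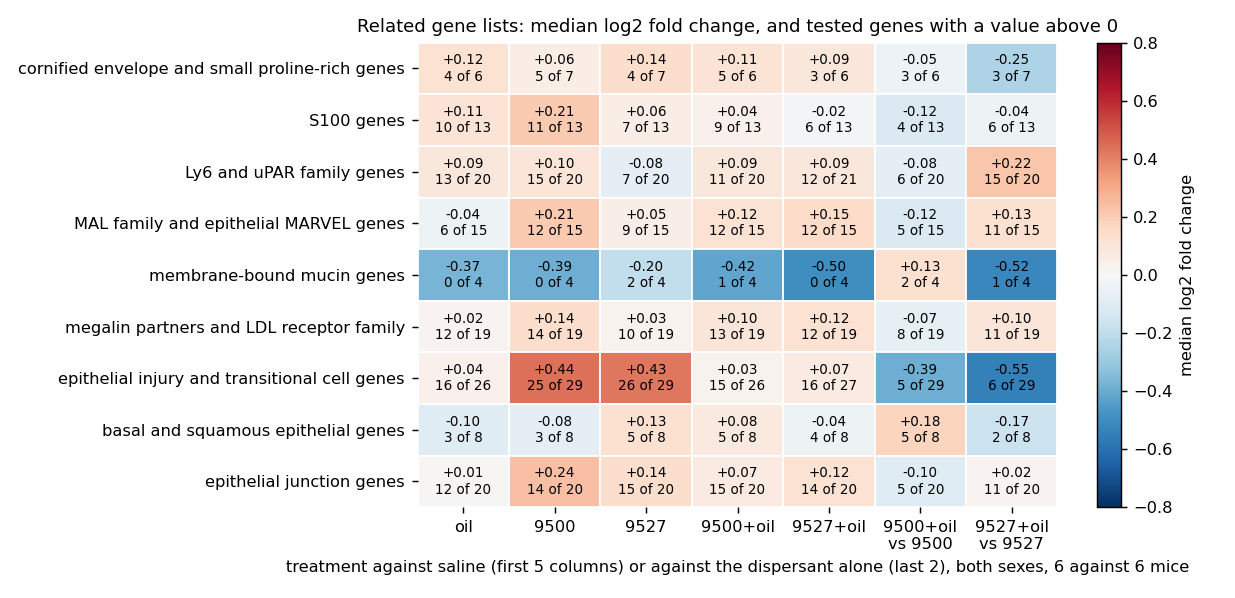
Median log2 fold change over the tested genes of 9 related lists (rows) in 7 comparisons over both sexes (columns), with the number of tested genes above 0 in each cell. Red is a median above 0 and blue below. The row of epithelial injury genes holds 0.44 and 0.43 for the dispersants alone and -0.39 and -0.55 where oil was added to them.

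Lists of the members' own relatives had medians of -0.39 to 0.21 with the dispersants alone over both sexes, and of -0.95 (membrane-bound mucins) to 0.56 (cornified envelope) with Corexit 9500 in female mice. In female mice the mucin median was also low with oil (-1.19), 9500+oil (-1.19) and 9527+oil (-1.02). With Corexit 9500 in male mice it was -0.08. Female saline mice spread widely for these genes, from 73.8 to 275 CPM for Muc4, 24.6 to 149 CPM for Muc20 and 2.85 to 37.3 CPM for Muc16. Of 24 genes of the cornified envelope, which includes the other small proline-rich genes, 10 are in both tables and 7 were tested with Corexit 9527 (4 above 0, 2 at an unadjusted p under 0.05 beside 2.85% of all genes, 0 called, median 0.14). Sprr2a2 had a log2 fold change of 4.03 ± 0.92 (adjusted p = 0.407 from edgeR), with 1.06 to 20.1 CPM in female Corexit 9527 mice (0.162 to 1.33 CPM with saline) and 1.19 to 9.42 CPM in male ones (0.0526 to 0.448 CPM). Sprr2a2 belongs to a cluster of nearly identical copies between which reads can be split, so its own level is uncertain. Against saline over both sexes it passed the filter on low counts only with the dispersants alone, so its value above 0 is in part built in. Tgm1, which encodes the transglutaminase of the cornified envelope, had 1.87 ± 0.63 (10.4 to 27.2 CPM in male Corexit 9527 and 4.02 to 5.05 CPM in male saline mice), and periplakin, Ppl, had 0.14 ± 0.15.

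The S100 genes had 7 of 13 tested genes above 0 with Corexit 9527 (median 0.06, 0 called). S100a9, a protein of neutrophils, had -0.77 ± 0.30 and S100a4 0.46 ± 0.27. The list also counted S100pbp (0.44 ± 0.24), which encodes a protein that binds an S100 protein and is itself outside the family. The Ly6 and uPAR family had 7 of 20 above 0 (median -0.08, 0 called), with Ly6k at 1.88 ± 0.68, Gpihbp1 at -0.31 ± 0.25 and Lypd2 at -0.41 ± 0.44. Among the relatives of Mal, 9 of 15 lay above 0 (median 0.05, 0 called), led by Plp2 (0.40 ± 0.19) and Marveld2 (0.78 ± 0.43), with Pllp at -0.65 ± 0.77. Of the 4 other membrane-bound mucins tested, 2 lay above 0 (median -0.20, 0 called), Muc4 had 0.14 ± 0.37, Muc16 -0.42 ± 0.84 and Muc20 -0.48 ± 0.50.

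Partners of megalin and other LDL receptor genes had 10 of 19 above 0 (median 0.03, 0 called, 3 at an unadjusted p under 0.05 beside 2.85% of all genes). The 3 were Clcn5, an endosomal chloride transporter that acts in megalin-dependent uptake (0.68 ± 0.21), Lrp8 (0.86 ± 0.32) and Lrp12 (0.47 ± 0.18). Clcn5, which was also among the genes most like Psca, had 21.3 to 39.8 CPM in male Corexit 9527 mice against 14 to 15.8 CPM with saline. Basal and squamous genes (5 of 8 above 0, median 0.13) and epithelial junction genes (15 of 20, median 0.14) had 0 called. The smallest p values belonged to Perp (0.31 ± 0.19), Dsp (0.13 ± 0.19) and Col17a1 (-0.41 ± 0.77) in the former, and to Spint1 (0.39 ± 0.17), Esrp1 (0.26 ± 0.14) and Cgn (0.36 ± 0.20) in the latter.

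Markers of the cells that a lung sample could hold were summed per mouse. The label of lung was borne out by alveolar type 2 markers (10 of 10 listed, 9370 to 27400 CPM), alveolar type 1 markers (11 of 11, 5820 to 8370 CPM) and club cell markers (6 of 6, 7900 to 27700 CPM). Stratified squamous lining of the mouth and oesophagus, another tissue that expresses Sprr1a, was checked in the same way. Of its 8 markers Krt6a, Krt6b, Sprr3, Dsg3 and Krtdap are not listed, Krt13 and Krt4 were under 1 CPM in every mouse, and 1 more, Ly6d, is listed. Any sum well above that level therefore comes mostly from Ly6d, which is also in the list of Ly6 and uPAR genes. The summed level was 3.14 to 36.9 CPM with saline, 12.7 to 65.9 CPM with Corexit 9500 and 3.17 to 23.8 CPM with Corexit 9527 in female mice, and 14.1 to 26.5, 20.8 to 21.8 and 14.3 to 24.7 CPM in male mice. Basal cell markers (5 of 5 listed) had 3.57 to 6.87 CPM in male saline and 3.93 to 5.51 CPM in male Corexit 9527 mice, with Krt14 under 1 CPM in every mouse. Stomach markers stayed between 1.79 and 7.07 CPM and thyroid markers between 0 and 4.53 CPM in every mouse.

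Markers of macrophages (7 of 8 listed) ran with the dispersants in female mice and with Corexit 9527 and oil in male mice. Their sum was 791 to 871 CPM in female saline, 896 to 1410 CPM in female Corexit 9500 and 1350 to 2400 CPM in female Corexit 9527 mice. In male mice it was 857 to 983, 869 to 1150 and 1070 to 1860 CPM, and 1210 to 1350 CPM with oil. With 9500+oil and 9527+oil the macrophage sum was 676 to 817 and 624 to 686 CPM in female mice. In male mice given these mixtures it was 770 to 943 and 763 to 1070 CPM. Goblet cell markers had 407 to 462 CPM in male saline and 525 to 990 CPM in male Corexit 9527 mice, but overlapped in female mice (424 to 1010 against 529 to 956 CPM). Club cell markers lay lower with Corexit 9527 in male mice (15000 to 18300 against 19900 to 25100 CPM with saline) and overlapped in female mice. Neutrophil markers had 240 to 270 CPM in male saline and 104 to 240 CPM in male Corexit 9527 mice. They were higher in male oil mice, at 307 to 951 CPM, where Muc1 also lay above saline, and ran from 245 to 793 CPM with 9500+oil and from 229 to 1240 CPM with 9527+oil. Mesothelial markers had 212 to 244 CPM in male saline and 187 to 202 CPM in male Corexit 9527 mice, without overlap. Over all mice the sums of the other lists were 301 to 710 CPM for ciliated, 40.3 to 85.1 CPM for Schwann, 37.6 to 109 CPM for T cell, 0 to 12.5 CPM for thymus and 126 to 515 CPM for heart muscle markers. The part of these shifts in the members' differences was not tested.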

How the data were processed

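RNA from the left lung of 36 mice was sequenced with a stranded mRNA kit. The authors estimated transcript abundance with Salmon on the GRCm38 cDNA set and gathered it with tximport, and deposited expected counts per gene symbol, in 1 table for each sex (18120 rows for female and 18295 for male mice). The values are whole, and no row sums to less than 10. Rows with a repeated name, 4 for each sex (0.0103% and 0.0128% of counts), were left out.

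Mice were grouped by their labels. Tests were made gene by gene with edgeR 4.0.16 (quasi-likelihood, R 4.3.3) after TMM normalization and filterByExpr, with Benjamini-Hochberg adjustment over all genes tested and a threshold of 0.05. Fits over both sexes used the 17716 shared genes and sex as a covariate. Standard errors are the log2 fold change divided by the square root of F, and intervals of 95% use the total degrees of freedom of the fit. Correlations used log2 CPM with a prior count of 2. The scripts were tested on simulated data.

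The members and the lists were chosen with earlier results of these data known. The genes named are the members, the 3 genes of each list with the smallest p with Corexit 9527 over both sexes, any list gene called in a comparison, and the 3 genes most like each member. Alternatives were DESeq2 1.42.0 as a test and its size factors, limma 3.58.1 voom with quality weights, a single fit over the 6 groups, no filter or one of 10 counts in each mouse compared, mitochondrial genes removed, libraries over 20% mitochondrial counts removed, sex left out of the model, and mice omitted 1 at a time. Direct comparisons within a sex were added after seeing the data. Positions and transcripts are from GENCODE M21 and promoters from RefSeq. Beyond treatment, concentration and days, the labels do not say how the mice of a group were kept apart, so p values measure the spread between these samples. Counts of 0 were kept as 0 in all levels and fits. The limit given beside a count of 0 is that of 3 counts, which covers counting error only.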

Additional observations from a re-analysis of the deposited data

How the results depend on the processing

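No paired analysis was possible because the groups compared share no mouse numbers: the numbers 1 to 18 run across the 6 treatments of a sex. The number of members called moved with the test and the libraries. With DESeq2's Wald test it was 2 with Corexit 9500 over both sexes (0 with edgeR), 4 with Corexit 9527 over both sexes (1), 1 with Corexit 9500 and 1 with Corexit 9527 in female mice (0 and 0), 1 with oil and 2 with Corexit 9500 in male mice (0 and 0), and 2 for 9500+oil against Corexit 9500 (0). With voom and quality weights it was 5 with Corexit 9527 over both sexes and 5 for 9527+oil against Corexit 9527 (3). With all 6 groups in 1 fit it was 1 with Corexit 9500, 5 with Corexit 9527 and 1 for 9500+oil against Corexit 9500, over both sexes. Without the libraries over 20% mitochondrial counts it was 6 with Corexit 9527 over both sexes and 5 for 9527+oil against Corexit 9527. The latter refit leaves out only female Corexit 9527 mouse 11. Leaving out each mouse in turn gave 0 to 2 with Corexit 9527 over both sexes, 0 to 1 with Corexit 9500 and 0 to 6 with Corexit 9527 in male mice, and 0 to 5 for 9527+oil against Corexit 9527. The share of all genes called rose in the same refits, to 0.0137 to 1.39% with DESeq2, 5.69% and 10.9% with voom, and 0.00644 to 0.689% with all groups in 1 fit, and so did the share without the libraries over 20% mitochondrial counts (2.34% and 6.94%). A change in the members cannot be told apart from one in all genes by these counts, and the cause was not tested.

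Among the comparisons of a dispersant with saline or of treatments with each other, signs turned in Corexit 9527 against Corexit 9500, where the values lay near 0. Values near 0 turned in the oil and mixture comparisons too: without the libraries over 20% mitochondrial counts, in female mice, Lrp2 and Mal with 9500+oil went from 0.05 and -0.04 to -0.14 and 0.04, and S100a14 with oil from 0.06 to -0.01. For Sprr1a the log2 difference of 0.08 became 1.13 with voom (Psca went from 0.29 to 1.03), -0.00 with all groups in 1 fit, -0.16 without the sex term, and -0.33 to 0.62 with each mouse left out, below 0 without female mouse 8 or male mouse 8 or 9 of Corexit 9500 (-0.06, -0.17 and -0.33) or male mouse 10 or 11 of Corexit 9527 (-0.03 and -0.19). For S100a14, -0.27 became 0.36 with voom, 0.01 without the libraries over 20% mitochondrial counts and -0.47 to 0.09 with each mouse left out, above 0 without female mouse 7 of Corexit 9500 (0.09) or 11 of Corexit 9527 (0.01). For Muc1 0.07 became -0.02 to 0.18, below 0 without male mouse 9 of Corexit 9500. Within female mice Sprr1a, Psca, Mal and Muc1 turned to -1.29, -0.86, -0.19 and -0.25, and within male mice S100a14 turned to 0.45. Psca, with 0 to 6 counts in every mouse not given a dispersant alone, is the member that depth limits most.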
